A study of Arabidopsis thaliana with 6 samples.

Results

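Annotated retained introns are stretches that are spliced out of some transcripts of a gene and kept as exon sequence in other transcripts of the same gene. In a flattened annotation, where every gene is divided into non-overlapping exon bins, such an intron becomes a bin of its own, so its RNA is counted like that of an exon. Among 200285 exon bins, 7040 had the chromosome, start and end of an intron in the deposited intron table, and 6645 of these lay in groups of a single gene. Of those, 2324 bins in 2017 genes had at least 10 counts in at least 3 of the 6 libraries and form the set described here; the other 4321 had fewer counts. Each of the 2324 was spliced in at least 1 transcript and retained in at least 1 other transcript of the RefSeq annotation.

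The RNA came from mature ovules of Arabidopsis thaliana, taken out of stage 13 and 14 flowers when plants were 6 weeks old, and was sequenced as stranded total RNA after ribosomal RNA depletion. The first group holds 3 libraries labelled PRP8Aa prp8bb, which reads as heterozygous for prp8a and homozygous for prp8b. Their T-DNA insertion ovules are labelled as a mixture of PRP8A;prp8b and prp8a;prp8b. Both kinds in that mixture carry prp8b, and only the second is written without PRP8A. The mixture label, as given, does not separate the tissues of an ovule. The second group holds 3 libraries of wild type (WT) ovules. Because each mutant library pools both labelled kinds, a change limited to the prp8a;prp8b kind is diluted in it. In such bulk samples fewer cells of a type and less RNA per cell cannot be told apart.

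PRP8 is the protein at the heart of the spliceosome, where it holds the RNAs that recognise the intron ends and catalyse splicing. In plants, retention of an intron is the most common form of alternative splicing. A retained intron often brings a stop codon into the reading frame, and the RNA may then stay in the nucleus or be degraded. A smaller group of retained introns, called exitrons, lies inside coding exons and is read through as protein when kept. Most introns begin with GT and end with AG, while a minor class, removed by a spliceosome with other small RNAs, often begins with GTATCCTT or runs from AT to AC.

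Exon bin counts totalled 18706217 to 22353729 in the 3 libraries labelled PRP8Aa prp8bb and 7361474 to 23086207 in WT, where WT replicate 1 was the shallowest. The number of member introns with at least 10 counts was 2226, 1678 and 2059 in PRP8Aa prp8bb replicates 1, 2 and 3, against 868, 2214 and 2192 in WT replicates 1, 2 and 3. Mitochondrial genes took 2.96%, 14.5% and 4.85% of the gene counts in the PRP8Aa prp8bb libraries, against 6.51%, 2.41% and 2.82% in WT. Summed levels of 4 embryo sac markers were 4.44 to 6.09 CPM (counts scaled to library size) in the PRP8Aa prp8bb libraries and 13.5 to 18 CPM in WT, those of 3 pollen markers 233 to 615 CPM and 258 to 268 CPM, and those of 6 ovule markers 319 to 342 CPM and 346 to 407 CPM. Of 2 carpel markers the sums were 38.9 to 45.9 CPM and 23.1 to 28.3 CPM, of 2 stamen and petal markers 11.2 to 16.8 CPM and 18.6 to 22.4 CPM, and of 2 leaf markers 3810 to 4460 CPM and 3940 to 4320 CPM. Each of the 4 embryo sac markers was lower in every PRP8Aa prp8bb library than in every WT library. Each of the 2 carpel markers was higher in every one. Within other sums single markers differed in direction or in overlap. PPME1 of pollen had 33.3 to 83 CPM in the PRP8Aa prp8bb libraries and 9.8 to 17.1 CPM in WT, AGP6 of pollen 21.6 to 43.8 CPM and 18.7 to 20.1 CPM, while VGD1, the most abundant of the 3, overlapped. Of the stamen and petal pair AP3 averaged 11.4 CPM and 18.7 CPM, and PI 3.04 CPM and 1.19 CPM. Among the ovule markers STK averaged 81.3 CPM and 125 CPM, and ANT 93.9 CPM and 74.9 CPM. Each of these markers had counts in every library. Their part in the results below was not tested.

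The targeted genes were read first. PRP8A had 876, 952 and 947 CPM in the PRP8Aa prp8bb libraries, against 1120, 1140 and 1210 CPM in WT (log2 fold change -0.32 ± 0.1 (SE), edgeR quasi-likelihood test, adjusted p = 0.105). PRP8B had 41.7, 42.6 and 43.8 CPM in the PRP8Aa prp8bb libraries, against 36, 34.8 and 38.6 CPM in WT (adjusted p = 0.251, edgeR). The 9 bins nearest the 3′ end of PRP8B, picked after their values were seen, held 32%, 6.71% and 18.1% of its counts in replicates 1, 2 and 3 labelled PRP8Aa prp8bb, against 27.8%, 35.7% and 37.8% in WT. PRP8Aa prp8bb replicate 1 thus lay within the WT range while replicates 2 and 3 lay below it, so results are given with and without the library labelled PRP8Aa prp8bb replicate 1.

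The intron ends show what these introns look like. All sequences are those of RefSeq TAIR10.1 at the TAIR10 coordinates of the files, written 5′ to 3′ on the gene's strand. The first set is shown because these 4 introns passed the adjusted threshold when the library labelled PRP8Aa prp8bb replicate 1 was left out; with all 6 libraries 0 of them passed. Each 5′ window holds 3 exon bases and 12 intron bases, each 3′ window 20 intron bases and 3 exon bases, and capitals mark the first and last 2 bases of the intron.
ALDH11A3, 5′ end: tggGTtagtttccct
ALDH11A3, 3′ end: gttgtgttgtgttataacAGggg
ARF6, 5′ end: gcgGTtttgaagtcg
ARF6, 3′ end: aataaatctgttttttttAGggt
AT3G04930, 5′ end: gtgGTcatggttttg
AT3G04930, 3′ end: tcaatagggatgaatcatAGgag
PIP3, 5′ end: tttGTgtgtaatgag
PIP3, 3′ end: acttctatttccttctttAGttt

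The second set is shown because introns read as coding sequence when kept had the highest median density of the classes described further on. These 3 introns lie inside coding exons of GRP7 (chr2:9265665-9265715, minus strand), which encodes a glycine-rich RNA-binding protein of the clock, of JAZ9 (chr1:26656321-26656392, plus strand), a repressor of jasmonate responses, and of SCL33 (chr1:20632478-20632550, plus strand), a serine/arginine-rich splicing factor. The GRP7 intron also has a stretch of 11 bases that occurs at both ends, as described further on. Capitals mark the first and last 2 bases.
GRP7: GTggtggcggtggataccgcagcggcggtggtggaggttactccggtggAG
JAZ9: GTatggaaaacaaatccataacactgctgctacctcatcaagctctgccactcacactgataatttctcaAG
SCL33: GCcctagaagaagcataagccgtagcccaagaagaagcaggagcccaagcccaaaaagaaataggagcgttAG

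The third set pairs both ends of introns annotated from AT to AC, with capitals on the stretch that occurs at both ends. It is shown because each of the 9 AT-AC members had such a repeat. GTE8 encodes a bromodomain protein.
GTE8, 5′ end, chr3:10072003-10072050: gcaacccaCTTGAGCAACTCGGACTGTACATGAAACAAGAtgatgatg
GTE8, 3′ end, chr3:10072288-10072335: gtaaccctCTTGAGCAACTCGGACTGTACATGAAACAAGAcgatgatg
AT1G73130, 5′ end, chr1:27500544-27500619: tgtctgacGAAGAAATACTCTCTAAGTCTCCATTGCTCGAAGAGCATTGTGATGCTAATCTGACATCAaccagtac
AT1G73130, 3′ end, chr1:27500691-27500766: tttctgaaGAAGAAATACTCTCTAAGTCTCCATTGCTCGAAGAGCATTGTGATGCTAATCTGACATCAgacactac

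Member introns were longer and richer in GC than other introns. Their median length was 117 bases, against 99 bases in the 115957 other introns of the table, and the median GC content was 35.3%, against 32.6%. A length divisible by 3, which leaves the frame intact when the intron is kept, occurred in 900 members (38.7%), against 33.0% of the other introns. GT-AG ends were found in 2260 members (97.2%, against 98.9% of other introns), GC-AG ends in 51 (2.19%, against 1.01%) and AT-AC ends in 9 (0.387%, against 0.0837%).

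The intron table gives a retention ratio, the share of the intron's RNA that kept it, from 0 to 1. The table names no library, so which libraries its values come from is not given in the sources used here, and they are used as the authors' values to describe introns only. The authors' median retention ratio was 0.351 over the members and 0.0073 over the other introns. Members were chosen for counts over the intron itself and for an annotated retained form, and the other introns were not. The median intron depth was 5.87 in members and 0.0217 in the other introns. A higher ratio in members was thus favoured by the choice, and the contrasts here are a description only. A ratio of at least 0.9 was listed for 754 members (32.4%), against 1.15% of the other introns. At the low end, 667 members (28.7%) had a ratio under 0.1, against 88.6% of the other introns. The ratios of the members thus covered both ends of the scale. All 2324 members carried the mark known-exon in the intron table. The median number of spliced reads was 4 in members and 16 in the other introns. A high ratio can therefore rest on few spliced reads, as in PIP3, with a ratio of 1 and 0 spliced reads.

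A second measure came from the bin counts alone. The flank-normalised density is the counts per base of the intron divided by the mean counts per base of its 2 neighbouring bins, so that 1 means as much RNA over the intron as over the exon next to it. Since fragments that span several bins count in each of them, short introns gain counts from their neighbours. Averaged over the 6 libraries, its median was 0.348, its quartiles were 0.12 and 0.972, and 682 members exceeded 0.8 while 479 lay under 0.1. Over the 2324 members this density and the authors' retention ratio had a rank correlation of 0.811, a description only, since both may be read from the same RNA.

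**Figure D1:**
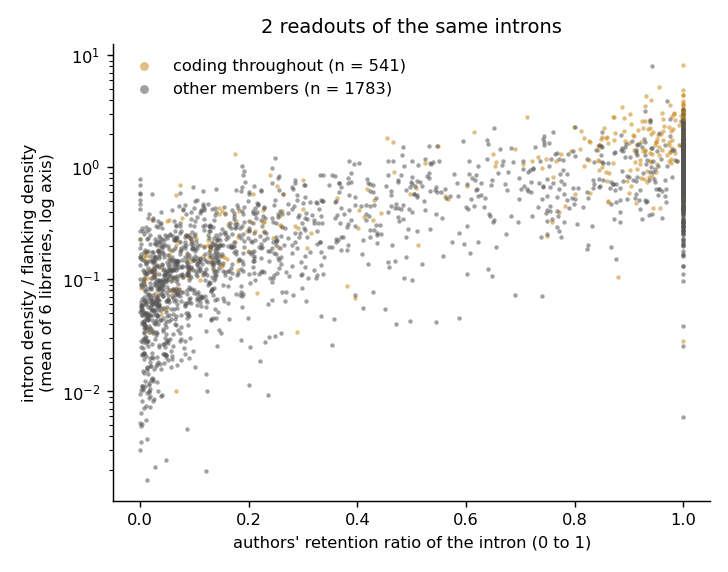
Each point is 1 of the 2324 member introns, with the authors' retention ratio on the horizontal axis and the flank-normalised density (mean of 6 libraries, log axis) on the vertical axis. The 541 introns whose retained form is coding throughout gather at high values of both, and the rank correlation over all members is 0.811.

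What the retained form encodes divided the members. In 541 introns the kept sequence lies wholly inside the coding sequence of a RefSeq transcript. These coding introns had a median density of 1.23, with quartiles of 0.489 and 1.89, and a median retention ratio of 0.981. The 1783 other members had a median density of 0.24 and a median retention ratio of 0.212. A density over 0.8 was reached by 352 coding introns (65.1%), against 330 (18.5%) of the others. Coding introns were also shorter, with a median of 90 bases against 134 bases, and short introns gain counts from their neighbours. What part length had in the density contrast was not tested. Class and density were not tested against each other.

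Their sequence differed as well. Coding introns had a median GC content of 40.7%, against 34.3% in the others, and a median length of 90 bases, against 134 bases. A length divisible by 3 was found in 328 coding introns (60.6%) and in 572 (32.1%) of the others. At least 1 of the 3 reading frames was free of stop codons in 532 coding introns (98.3%), a measure not independent of the class, and in 361 (20.2%) of the others. Of the members that are not coding throughout, 1014 lay inside the coding span with a median density of 0.165, 499 lay 5′ of it with 0.372, and 270 lay 3′ of it with 0.599.

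**Figure D2:**
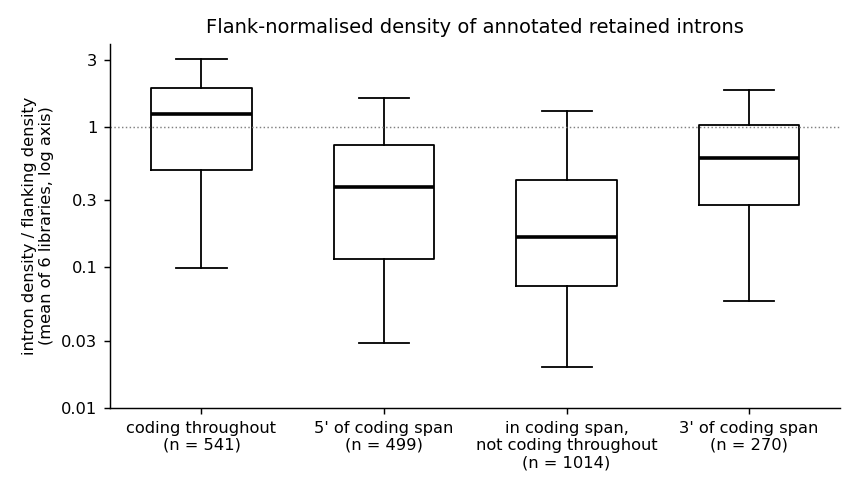
Boxes show the median and quartiles, and whiskers the 5th and 95th percentiles, of the flank-normalised density (mean of 6 libraries, log axis) in 4 classes of member introns. The median is 1.23 in the 541 introns coding throughout and 0.165 in the 1014 introns inside the coding span that are not; the dotted line marks a density equal to that of the flanking exon bins.

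Of the 5 members with the highest mean share of their gene's bin counts, 3 were coding introns. UBQ11, a polyubiquitin gene, had the highest: its 228-base intron (chr4:2588402-2588629) took 33.9%, 43.6% and 37.6% of the gene's bin counts in the PRP8Aa prp8bb libraries, against 39.8%, 33.4% and 34% in WT. Ubiquitin units are near copies of each other within and between genes, so reads may be divided among them and this value is uncertain. Next came a 72-base intron of AT5G10695 with a mean share of 37 ± 1.01% in PRP8Aa prp8bb and 37 ± 0.602% in WT (SD, n = 3 each), and a 99-base intron of AT4G21620 with 38.5 ± 3.18% and 35.1 ± 2.61%. The groups overlapped in all 3 genes.

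The other two were long and not coding throughout. In FHL, a helper of phytochrome A import into the nucleus, the 641-base intron took 39.3%, 32.2% and 37.7% in the PRP8Aa prp8bb libraries, against 29.6%, 39.6% and 35.8% in WT. In AT3G57062 the 680-base intron 3′ of the coding span took 42.7%, 24.2% and 39.3%, against 22.4%, 39.4% and 45.2%. In AT3G57062 PRP8Aa prp8bb replicate 2 and WT replicate 1, the libraries with the largest mitochondrial shares, were the low ones of their groups.

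By density, the 5 leading members were short introns of 55 to 79 bases. AT3G58520 led with a mean density of 8.25 over the 6 libraries, followed by COAB, an enzyme of coenzyme A synthesis, with 7.97, the transcription factor gene bZIP44 with 5.27, the resistance-type gene CW9 with 4.91 and AT1G12760 with 4.47. Short bins gain from fragments that overlap them, and all 5 values belong to introns for which the authors' retention ratio was at least 0.9. In bZIP44 the groups overlapped: its 70-base intron held 25%, 23.3% and 22% of the counts in PRP8Aa prp8bb, against 21%, 23.9% and 24.1% in WT.

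Direct repeats across the ends marked a small subgroup. In 41 members (1.76%) at least 8 bases occurred identically at both ends of the intron, against 0.325% of the other introns. Of the 41, 36 were coding throughout and 37 had a length divisible by 3, and their median density was 1.07, against 0.336 in the remaining members. All 9 AT-AC members belonged to it, with repeats of 24 to 60 bases and densities of 0.736 to 1.84; 8 of them were coding throughout. Among the 97 other AT-AC introns of the table, 24 had such a repeat. UBQ10 held a further repeat of 56 bases across its 228-base intron. Where the ends are identical, the position of the cut, or whether the shorter form came from a spliced RNA, cannot be read from the annotation.

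A few examples and the member of lowest p show the AT-AC introns by library. In GTE8 the 285-base intron had 236, 267 and 251 counts in the PRP8Aa prp8bb libraries, against 103, 242 and 246 in WT, and its density ranged over 1 to 1.22 in PRP8Aa prp8bb and 1.07 to 1.34 in WT. In AT1G73130 the 147-base intron had 63, 49 and 53 counts, against 15, 49 and 59 in WT, and shares of 12.5%, 14.6% and 12%, against 10.1%, 11% and 11.2%, groups that did not overlap. DL1, a dynamin of the cell plate, had the lowest p of the 9 (unadjusted p = 0.00735, edgeR): 136, 43 and 105 counts in the PRP8Aa prp8bb libraries against 21, 158 and 160 in WT, with a usage log2 fold change of -0.61 that did not pass the adjusted threshold.

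A second small subgroup began with GTATCCTT, the start typical of the minor class of introns, searched on the gene's strand over the first 8 bases. It held 11 members (0.473%, against 0.154% of the other introns), none with a repeat over 1 base. After their first 2 bases, none of the 9 AT-AC members continued with the rest of this start. The windows of 3 GTATCCTT members are shown to set this start beside that of the AT-AC members, again with the first 2 intron bases in capitals. CKB3 encodes a regulatory subunit of casein kinase II, and DER1 a protein of the endoplasmic reticulum.
CKB3, 5′ end: gcaGTatcctttttc
SIS3, 5′ end: tgtGTatccttatgc
DER1, 5′ end: ggtGTatcctttatt
Their median density was 0.148, within a range of 0.0143 to 0.473. In CKB3 the 148-base intron had 39, 11 and 34 counts in the PRP8Aa prp8bb libraries, against 8, 34 and 36 in WT. Usage log2 fold changes of the 11 ranged from -0.61 to 0.28 and the smallest unadjusted p was 0.166 (edgeR).

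The comparison between genotypes asked whether retained introns took another share of their genes' RNA in the libraries labelled PRP8Aa prp8bb than in WT. Summed over all members, their bins held 4.44%, 4.31% and 4.31% of their genes' bin counts in the PRP8Aa prp8bb libraries, against 4.45%, 4.63% and 4.45% in WT. The highest PRP8Aa prp8bb library lay just under the lowest WT library, and the difference of the means was -0.159 percentage points. It was -0.329 over the 836 members with 10 counts in all 6 libraries, -0.101 over the matched single-gene bins with no filter on counts, and -0.1 without WT replicate 2, while the medians of the next sentence differ by -0.0736. The median member's share was 3.10%, 2.42% and 2.87%, against 2.47%, 3.05% and 3.07%, and these values overlapped. The median density likewise overlapped, with 0.370, 0.304 and 0.342 in PRP8Aa prp8bb and 0.296, 0.363 and 0.352 in WT. PRP8Aa prp8bb replicate 2 and WT replicate 1 had the lowest medians of their groups and the highest mitochondrial shares; what part that had was not tested.

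Bin by bin, no member passed the adjusted threshold. Usage was tested as the change of a bin relative to the other bins of its gene, over 116071 bins of the whole table with edgeR's diffSpliceDGE. At an adjusted p under 0.05, 0 of 2324 members had higher usage and 0 had lower usage in PRP8Aa prp8bb; over all tested bins the calls were 0% higher and 0.00172% lower. At an unadjusted p under 0.05, 20 members (0.861%) were higher and 71 (3.06%) lower, against 0.529% and 1.06% of all tested bins. DESeq2 called 0 members, against 0.00345% higher and 0.00603% lower of all tested bins; at an unadjusted p under 0.05 it gave 14 higher and 61 lower, against 0.562% and 0.983%. Limma on the logit of the share called 0 members and 0% of all bins, with 53 higher and 118 lower at an unadjusted p under 0.05, against 1.96% and 2.67%. Members were spread more widely than other bins: 84.3% had a usage log2 fold change within 0.5 of 0, against 95.5% of all bins. Their counts were low, with a median mean count of 19. The median over members was -0.042, against -0.004 over all tested bins.

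**Figure D3:**
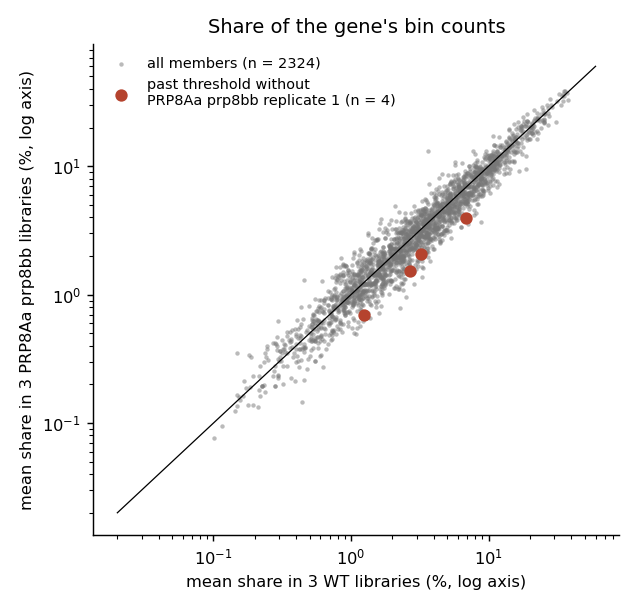
Each point is a member intron, with its mean share of the gene's bin counts in 3 WT libraries on the horizontal and in 3 PRP8Aa prp8bb libraries on the vertical axis (both in %, log axes); the line marks equal shares. Most points lie close to the line, and the 4 introns in red, past the adjusted threshold only when PRP8Aa prp8bb replicate 1 was left out, lie below it.

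Groups that do not overlap were counted as well. In 95 members (4.09%) every PRP8Aa prp8bb library was above every WT library, and in 139 (5.98%) every one was below; over all tested bins these shares were 4.97% and 5.12%. Against the 2 flanking bins only, limma gave 35 members higher (1.51%) and 58 lower (2.5%) at an unadjusted p under 0.05. Over the 10572 bins that have both neighbours, 2.03% were higher and 2.55% lower; 0 members passed the adjusted threshold, against 0.00946% higher and 0% lower. Other filters and a replicate block also called 0 members. The same settings called 0.00226% of all bins lower with 10 counts in all 6 libraries, 0.000661% higher and 0.00132% lower with 1 count in 3 libraries, and 0.000862% lower with the block.

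Leaving out the library labelled PRP8Aa prp8bb replicate 1 changed the count. Then 4 members had lower usage at an adjusted p under 0.05 (0.172%, against 0.0405% of all tested bins) and 0 had higher usage (0.00345%). At an unadjusted p under 0.05, 180 members (7.75%) were lower and 25 (1.08%) higher, against 3% and 1.03% of all bins. Leaving out any of the other 5 libraries gave 0 members in either direction, against at most 0.00517% of all bins each way (0.00258% higher without replicate 2 of PRP8Aa prp8bb). Without both PRP8Aa prp8bb replicate 2 and WT replicate 1 it was again 0, against 0.00948% higher and 0.00431% lower. Since 2 libraries then stand for the group, each of the 4 is described with all its values.

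ARF6, an auxin response factor that acts in flower maturation, has an 86-base intron 5′ of its coding span (chr1:10690219-10690304). It held 104, 19 and 29 counts in PRP8Aa prp8bb replicates 1, 2 and 3, against 23, 65 and 57 counts in WT replicates 1, 2 and 3. As a share of the gene's bin counts these were 1.45%, 0.278% and 0.356%, against 1.22%, 1.44% and 1.05%. Replicates 2 and 3 were below every WT library, while replicate 1 was above every WT library. Usage log2 fold change was -0.87 with all libraries (adjusted p = 1, edgeR) and -1.9 without replicate 1 (adjusted p = 0.00164). The ARF6 gene itself was higher in PRP8Aa prp8bb, with a log2 fold change of 0.68 (adjusted p = 0.019, edgeR).

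AT3G04930 showed the same order of libraries over a 432-base intron (chr3:1364188-1364619) inside its coding span. Counts were 55, 9 and 8 in PRP8Aa prp8bb, against 12, 44 and 51 in WT, and shares were 9.48%, 1.21% and 1.17%, against 4.67%, 7.6% and 8.46%. Again replicate 1 exceeded all WT libraries and replicates 2 and 3 lay below them all. Its usage log2 fold change was -1.02 with all libraries (adjusted p = 1, edgeR) and -2.53 without replicate 1 (adjusted p = 0.0287). The gene level did not pass the threshold (adjusted p = 0.575, edgeR).

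ALDH11A3, a non-phosphorylating glyceraldehyde-3-phosphate dehydrogenase, had the smallest p of all members. Its 195-base intron (chr2:10327135-10327329) held 2.35%, 1.14% and 1.15% of the gene's bin counts in PRP8Aa prp8bb, against 3.32%, 2.5% and 2.27% in WT. Only replicate 1 reached the WT range. The usage log2 fold change was -0.81 with all libraries (unadjusted p = 6.09e-05, adjusted p = 0.61, edgeR) and -1.21 without replicate 1 (adjusted p = 0.00164). Gene level gave a log2 fold change of 0.06.

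PIP3, a water channel of the plasma membrane, has a 72-base intron 3′ of its coding span (chr4:16710035-16710106). It held 693, 229 and 410 counts in PRP8Aa prp8bb, against 196, 846 and 662 in WT, or 3.04%, 1.27% and 1.88% of the gene's bin counts against 3.38%, 3.42% and 2.97%. Replicate 1 lay inside the WT range and the other PRP8Aa prp8bb libraries below it. Without replicate 1 the usage log2 fold change was -1.05 (adjusted p = 0.0271, edgeR), against -0.68 with all libraries (adjusted p = 1).

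**Figure D4:**
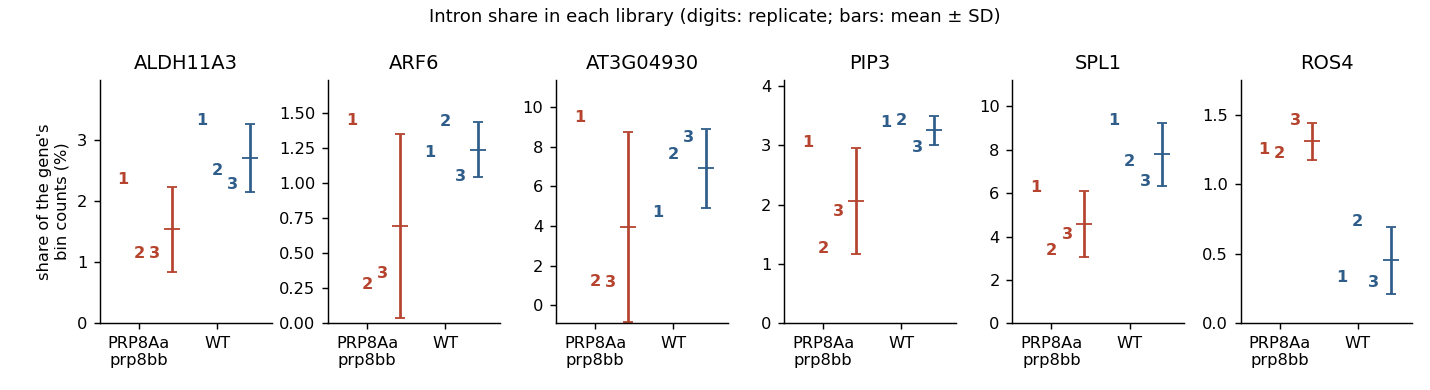
Share of the gene's bin counts (%) for 6 introns, with each library shown by its replicate number, PRP8Aa prp8bb on the left and WT on the right, and bars for the mean and SD of 3 libraries. In ALDH11A3, ARF6, AT3G04930 and PIP3 replicates 2 and 3 of PRP8Aa prp8bb lie below all WT libraries and replicate 1 does not; in SPL1 and ROS4, chosen for their small p with all libraries, the groups do not overlap, and ROS4 reached 10 counts only in the PRP8Aa prp8bb libraries.

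With all 6 libraries, 4 further introns were among those of smallest p in their direction and were picked for that, so their values are a description. SPL1, a transcription factor of the SBP family, held 6.28%, 3.34% and 4.08% of its gene's counts over a 319-base intron in PRP8Aa prp8bb, against 9.35%, 7.46% and 6.53% in WT, so that every PRP8Aa prp8bb library was below every WT library. BAM5, a beta-amylase, held 0.235%, 0.0958% and 0.109%, against 0.0837%, 0.655% and 0.587%, from 15, 8 and 9 counts against 1, 28 and 20, and WT replicate 1 was the lowest library. In the other direction, ROS4 is 1 of the 14 members that reached 10 counts in all 3 PRP8Aa prp8bb libraries and in 0 WT libraries, so it entered through the group in which it is high. ROS4, a histone acetyltransferase that acts in DNA demethylation, held 1.25%, 1.22% and 1.46%, against 0.333%, 0.732% and 0.293%, from 13, 10 and 14 counts against 1, 8 and 3. PIP1;4, another water channel, held 0.538%, 0.814% and 1.03%, against 0.406%, 0.451% and 0.442%. Both of these higher introns had groups that did not overlap, and all 4 had an adjusted p of 1 (edgeR).

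By class, the library medians ran as follows. For introns 3′ of the coding span the median share was 4.1%, 2.47% and 3.11% in PRP8Aa prp8bb replicates 1, 2 and 3, against 3.02%, 3.82% and 3.95% in WT replicates 1, 2 and 3. Replicate 1 was the highest of the 6 libraries and replicate 2 the lowest. Among these 270 introns, 0 were higher and 16 (5.93%) lower at an unadjusted p under 0.05, against 0.529% and 1.06% of all tested bins, with a median usage log2 fold change of -0.16. Without replicate 1 the median was -0.31, and 1 was higher and 48 lower, against 1.03% and 3% of all bins. Measured against the flanking bins only, 1 was higher and 3 lower, against 2.03% and 2.55% of the bins with both neighbours, with a median log2 fold change of -0.1.

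Introns 5′ of the coding span (499) had a median usage log2 fold change of -0.07. At an unadjusted p under 0.05, 4 (0.802%) were higher and 25 (5.01%) lower, against 0.529% and 1.06% of all tested bins. Without replicate 1, 5 were higher and 51 lower, against 1.03% and 3% of all bins. Measured against the flanking bins alone, 14 were higher and 14 lower, where the bins with both neighbours gave 2.03% and 2.55%. The same shares over all bins apply to the next 2 classes. The 1014 introns inside the coding span that are not coding throughout had -0.04, with 12 (1.18%) higher and 25 (2.47%) lower. Of these 1014, 14 were higher and 65 lower without replicate 1, and 16 higher and 30 lower against the flanking bins. The 541 coding introns had 0.02, with 4 (0.739%) higher and 5 (0.924%) lower. Of these 541, 5 were higher and 16 lower without replicate 1, and 4 higher and 11 lower against the flanking bins. Their median share was 6.67%, 6.63% and 6.68% in PRP8Aa prp8bb, against 6.05%, 7% and 6.53% in WT. Other bins at the ends of genes were read in the same way. The 9086 last bins of a gene that are no members had a median of -0.041, with 0.308% higher and 1.53% lower at an unadjusted p under 0.05. The 8360 first bins had 0.007, with 0.766% higher and 1.32% lower, and the 38749 bins of the middle stretch had 0.008, with 0.475% higher and 0.56% lower. No test of the difference between classes was run.

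**Figure D5:**
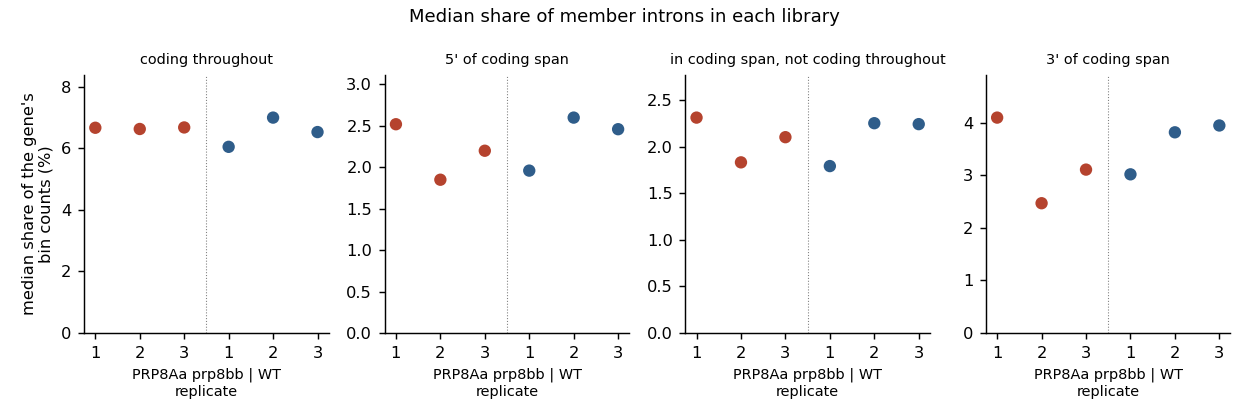
Median share of the gene's bin counts (%) over the introns of each class, for PRP8Aa prp8bb replicates 1 to 3 (left, red) and WT replicates 1 to 3 (right, blue). Coding introns keep to 6.05% to 7% in all libraries, while for introns 3′ of the coding span the PRP8Aa prp8bb libraries run between 2.47% and 4.1% around the WT values of 3.02% to 3.95%.

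Of the gene lists, that of the SR proteins held the most members. These proteins bind exons and help choose splice sites, and several control their own RNA by splicing. In 11 of 20 SR genes there were 14 member introns, of which 0 passed the adjusted threshold (0.00172% of all tested bins). At an unadjusted p under 0.05, 0.529% of all tested bins were higher and 1.06% lower. With such shares, a count of 0 among so few introns says little about this list or the lists below. Of the 14, 1 had an unadjusted p under 0.05. It was the 604-base intron of SR30, with 42, 13 and 24 counts in PRP8Aa prp8bb, against 5, 63 and 58 in WT, and shares of 1.83%, 0.722% and 1.08%, against 0.589%, 2.19% and 2.25%; the groups overlapped (usage log2 fold change -0.6, unadjusted p = 0.0464, edgeR). SR45 had 7, 11 and 7 counts over a 95-base intron, against 3, 13 and 14, with shares of 0.25%, 0.312% and 0.225%, against 0.397%, 0.533% and 0.512%. SR34A had 30, 31 and 34 counts over 111 bases, against 10, 26 and 19, with shares of 1.22%, 1.45% and 1.66%, against 1.17%, 1.14% and 0.838%. In SR45 and SR34A the shares of the groups did not overlap, and both had an adjusted p of 1 (edgeR). Over all tested bins such shares were higher in 4.97% and lower in 5.12%. The density of SR34A overlapped, with 0.0656 to 0.084 in PRP8Aa prp8bb and 0.0549 to 0.0791 in WT. That of SR45 did not, with 0.0338 to 0.0411 and 0.0662 to 0.0728. Densities in the list ran from 0.0353 to 2.01, with 10 introns under 0.2.

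SCL33 held the densest intron of the SR list, the GC-AG intron printed above. It had 207, 142 and 199 counts in PRP8Aa prp8bb, against 83, 286 and 216 in WT. Shares were 9.69%, 8.51% and 10%, against 13.4%, 10.4% and 9.75%, so the groups overlapped. In stress-linked SR45A a 147-base intron had 99, 60 and 86 counts, against 8, 225 and 127 in WT, with shares of 4.59%, 2.97% and 3.95%, against 1.79%, 4.79% and 3.96%. Both were picked as examples after their values were seen.

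Other splicing genes gave 6 members in 5 of 23 genes, and 0 passed or reached an unadjusted p under 0.05. Of all tested bins, 0.529% were higher and 1.06% lower at that unadjusted p. STA1, a protein that bridges spliceosomal particles, had 34, 27 and 42 counts over a 289-base intron 3′ of its coding span, against 11, 45 and 43 in WT. U1-70K, a protein of the particle that recognises the 5′ splice site, had a 909-base intron with 234, 125 and 134 counts, against 65, 217 and 211, and shares of 8.18%, 5.69% and 6.01%, against 5.85%, 8.19% and 8.46%. U2AF65A, which binds the 3′ end of introns, had 62, 36 and 49 counts over 100 bases, against 25, 47 and 62.

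The 12 JAZ repressors of the jasmonate pathway had 9 members in 7 genes, with 0 past the threshold and 0 at an unadjusted p under 0.05. All tested bins gave 0.529% higher and 1.06% lower at that unadjusted p. JAZ5 had the smallest p, with shares of 2.21%, 1.66% and 2.12% in PRP8Aa prp8bb, against 2.42%, 2.54% and 2.99% in WT, groups that did not overlap (usage log2 fold change -0.52, adjusted p = 1, edgeR). JAZ1 had 4.16%, 3.39% and 3.48%, against 4.51%, 4% and 4.66%, and JAZ10 had 1.79%, 1.25% and 1.38%, against 1.54%, 1.89% and 1.8%. JAZ9, an example picked after its values were seen, carried the most counts: 761, 880 and 976, against 201, 504 and 649 in WT, with shares of 11.7%, 13.1% and 12.8%, against 10.6%, 11.1% and 11.8%. The JAZ9 gene level had a log2 fold change of 0.56 (adjusted p = 0.0547, edgeR).

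Clock genes contributed 6 members in 6 of 15 genes, and 0 passed, against 0% higher and 0.00172% lower of all tested bins. JMJD5, a demethylase-like protein of the clock, had 46, 27 and 38 counts over a 98-base intron, against 10, 19 and 24 in WT, and its shares of 9.15%, 12.8% and 10.4% overlapped with 17.5%, 10.4% and 13.9%. The gene itself was higher in PRP8Aa prp8bb (log2 fold change 1.27, adjusted p = 0.00417, edgeR), while the intron's share was not above that of WT. TIC, a clock regulator, had the densest intron of the list (mean density 3.89), with shares of 3.22%, 2.91% and 2.86%, against 5.27%, 2.89% and 2.62%. RVE4, a Myb factor of the clock, had 5, 9 and 14 counts over 319 bases 3′ of its coding span, against 1, 23 and 30, and its gene was lower (log2 fold change -0.59, adjusted p = 0.022, edgeR).

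Flowering regulators held 11 members in 6 of 9 genes, again with 0 past the threshold (0% higher and 0.00172% lower of all tested bins). FLK, an RNA-binding protein that represses FLC, has 2 of those described: a 486-base intron 5′ of the coding span with 77, 33 and 58 counts, against 28, 69 and 71 in WT, and a 72-base coding intron with a direct repeat of 24 bases and 163, 119 and 184 counts, against 52, 174 and 192. Shares of the coding intron were 6.56%, 6.86% and 8.42%, against 8.15%, 7.15% and 7.61%. FLM, a floral repressor known for temperature-dependent splicing, had 38, 12 and 27 counts over 116 bases, against 3, 30 and 21. MAF2, its relative, held the longest member of all with 2081 bases and 107, 60 and 76 counts, against 29, 110 and 114. The ovule list had 2 members in 12 genes: SHP1, a MADS-box factor of ovule identity, with 30, 20 and 28 counts, against 7, 34 and 27, and LUG, a co-repressor, with 18, 8 and 17, against 6, 10 and 8.

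The genes that hold the introns were compared as whole genes. Of 2017 host genes tested with edgeR, 60 (2.97%) were higher and 36 (1.78%) lower in PRP8Aa prp8bb at an adjusted p under 0.05, against 3.05% and 2.79% of the 19297 genes tested. Those 96 hosts carry 112 members, whose usage log2 fold changes ran from -1.95 to 1.34 with a median of -0.11. An unadjusted p under 0.05 was found for 8 of the 112, against 20 higher and 71 lower of all 2324 members, and 0.529% higher and 1.06% lower of all tested bins. Without PRP8Aa prp8bb replicate 3 the counts were 25 higher and 7 lower (1.27% and 0.921% of all genes), and without WT replicate 3 they were 27 and 9 (1.32% and 1.02%). Without PRP8Aa prp8bb replicate 1 they were 76 and 33 (3.54% and 2.78%), without WT replicate 1 they were 74 and 46 (3.52% and 3.6%), and with a replicate block 44 and 26 (2.4% and 2.19%).

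GRP7 had the largest rise among hosts with a mean of at least 5 CPM, with 271, 532 and 412 CPM in PRP8Aa prp8bb, against 75.8, 27.8 and 40.6 CPM in WT (log2 fold change 3.08 ± 0.45 (SE), adjusted p = 0.016, edgeR). Its 51-base coding intron had 373, 496 and 106 counts in PRP8Aa prp8bb, against 50, 30 and 34 in WT, with no overlap. This intron has a direct repeat of 11 bases across its ends, so the limit given for the repeat subgroup applies to it. The shares overlapped: they were 6.26%, 5.29% and 1.32%, against 8.14%, 4.84% and 3.92%. Replicate 3 of PRP8Aa prp8bb was the lowest and WT replicate 1 the highest.

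COR15A, a cold-induced chloroplast protein, had 30.6, 30.8 and 28.4 CPM in PRP8Aa prp8bb, against 2.8, 6.47 and 6.27 CPM in WT (log2 fold change 2.49 ± 0.24 (SE), adjusted p = 0.000668, edgeR). Its 69-base coding intron had 206, 111 and 156 counts, against 8, 43 and 36, and shares of 21.2%, 15.1% and 18%, against 26.7%, 21.8% and 20%. A second member of COR15A, of 203 bases and not coding throughout, had shares of 9.28%, 10.3% and 12.2%, against 3.33%, 8.63% and 7.22%, with no overlap between the groups (usage log2 fold change 0.38, adjusted p = 1, edgeR). CYP76C1, a cytochrome P450, had 24.8, 19.1 and 27.3 CPM against 5.84, 5.23 and 6.19 CPM. Its coding intron held 10.9%, 10.2% and 9.4% of the counts, against 13.5%, 11.3% and 11.5%. Here every PRP8Aa prp8bb library was below every WT library (usage log2 fold change -0.2, unadjusted p = 0.605, edgeR).

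Among hosts that fell, RVE8, a Myb activator of evening clock genes, had 7.71, 10.6 and 11.6 CPM in PRP8Aa prp8bb, against 26.2, 53.3 and 37.1 CPM in WT (log2 fold change -1.97 ± 0.27 (SE), adjusted p = 0.006, edgeR). Its 287-base intron held 4.21%, 4.15% and 1.94% of the bin counts, against 3.91%, 3.11% and 3.66%, and the groups overlapped. AT3G54500 fell to 74.8, 94.6 and 89.7 CPM in PRP8Aa prp8bb, against 144, 241 and 206 CPM in WT (adjusted p = 0.00672, edgeR) and carries 3 members. The 65-base coding intron held 6.34%, 7.27% and 6.01%, against 6.66%, 5.19% and 5.97%, while the 136-base intron 5′ of the coding span held 0.805%, 0.564% and 0.466%, against 0.792%, 1.08% and 0.991%.

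The count filter decided which introns could be seen. Of the single-gene bins that match an intron, 383 reached 10 counts in exactly 3 libraries and are members, with a median mean count of 9.67. Just outside, 403 reached it in exactly 2 libraries, with a median mean count of 7.5. All 6 libraries reached it in 836 members. In 14 members all 3 PRP8Aa prp8bb libraries and 0 WT libraries reached 10 counts, and in 1 member the reverse held. Such bins passed through the group in which they were high. The reverse case needs 10 counts in WT replicate 1, the shallowest library, which reached them in only 868 members. The numbers 14 and 1 are therefore not comparable between the groups.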

How the data were processed

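The submitters' processing notes name TAIR10, Trimmomatic, STAR, featureCounts, Subread 1.6.0 and DESeq2 for the stranded total RNA libraries of ovules. Per the file headers, the deposited gene and exon bin tables hold raw fragment counts, with strand setting 1, and in the bin table fragments that span several bins count in each. The authors' intron table has the column layout of IRFinder and gives a mean depth (coverage signal), a count of spliced reads and the retention ratio, a fraction; how it was made is not given in the sources used here, and it names no library. Even values made up 77.6% of the gene counts above 0 in WT replicate 1 and between 47.7% and 48.6% in each other library; the fits took that library's gene counts unchanged, and an alternative halved them.

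Libraries were grouped by title. The labels call the replicates biological and name no separate plants, so each p-value rests on the spread among 6 libraries, part of which may be technical. Every pair of replicates differed by more than sampling noise, with a chi-square per gene between 5.06 and 89.4.

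Tested bins had 10 or more counts in 3 or more libraries and lay in groups with 2 or more such bins; edgeR 4.0.16 was used (glmQLFit, robust, TMM, diffSpliceDGE) in R 4.3.3, and p-values were Benjamini-Hochberg adjusted over all 116071 bins. Genes were tested with glmQLFTest after filterByExpr; CPM values use TMM-scaled library sizes. Alternatives used DESeq2 1.42.0 and limma 3.58.1 (0.5 added to counts), other filters and scalings, a replicate block, and each library left out in turn. The scripts were tested on simulated data. Gene names, coding classes and sequences come from RefSeq TAIR10.1, in which all 2017 host genes were found by identifier and 98.8% of 118268 nuclear introns had GT-AG ends. A member counts as coding throughout when a RefSeq transcript holds it wholly inside its coding sequence; position is relative to the outermost coding bases of the gene. Python 3.11.15 (pandas 2.3.3, numpy 2.4.6, scipy 1.17.1, matplotlib 3.10.9) made the other tables and figures.

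The members, lists, classes and alternatives were chosen with earlier results of these data known. The rule for named introns took up to 12 per direction past the adjusted threshold (0 qualified), 3 per gene list by smallest p, and the 5 of highest mean share and of highest mean density, 1 per gene. The introns called without PRP8Aa prp8bb replicate 1, those of smallest p, the hosts of largest change, the repeat and GTATCCTT subgroups and the examples were picked after their values were seen. The deposited table of the authors' own gene comparison was not used.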

Additional observations from a re-analysis of the deposited data

How the results depend on the processing

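No member intron passed the adjusted threshold in either direction with all 6 libraries, nor with at least 10 counts required in all 6 libraries (836 members), with at least 1 count in 3 libraries, with RLE size factors, with DESeq2, with limma on the logit share or on the flanking bins, or without PRP8Aa prp8bb replicate 2 and WT replicate 1 together, an alternative chosen after seeing the data. Leaving out 1 library in turn gave 0 to 4 members with lower usage (the 4 without PRP8Aa prp8bb replicate 1) and 0 with higher usage. The summed share differed by -0.159 percentage points and by -0.329 when 10 counts were required in all 6 libraries; the cause was not tested. Without 1 library in turn it ranged from -0.201 to -0.1. It was -0.101 over the 6645 matched single-gene bins with no filter on counts, and -0.0736 for the median in place of the sum. Higher host genes numbered 25 to 76 and lower ones 7 to 46 with 1 library left out, where the fewest came without PRP8Aa prp8bb replicate 3 and the next fewest (27 and 9) without WT replicate 3, and fewer libraries were fitted. Deviations of same-numbered libraries had correlations of -0.14, -0.124 and 0.0621. With 3 libraries per group these values cannot settle whether replicate numbers pair the libraries. With a replicate block 0 members were higher and 0 lower, and hosts numbered 44 higher and 26 lower. Of 586 fits of the named introns under alternatives, 38 had the other sign, none of them past the threshold. Members had a median mean count of 19, and WT replicate 1 had 10 counts in 868 of them; what part depth had in the count of 0 was not tested.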
